A study of Mus musculus with 24 samples.

Results

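A set of 8 long non-coding RNA (lncRNA) genes was followed through the lungs of mice given bacterial lipopolysaccharide (LPS) with or without a plant extract. They were Malat1, Neat1, Gas5, Snhg1, Snhg5, Snhg6, Snhg8 and Snhg12, chosen by their gene names, and each of these 8 names matched 1 row of a table of 78298 genes. RNA was measured in whole lung of 24 wild-type C57BL/6 mice, 7 weeks old, in 5 groups. The LPS group (n = 5) received LPS into the trachea at 5 mg/kg on day 29. The low-dose, mid-dose and high-dose groups (n = 5 each) received the same challenge after 28 days of drinking water with an aqueous Artemisia argyi extract (AEAA). The water held 0.5 mg/mL of extract for the low-dose, 1 mg/mL for the mid-dose and 1.5 mg/mL for the high-dose group. The Control group (n = 4) was given saline and no extract in the protocol text, while the challenge field of its labels names LPS. Lungs were taken 8 h after the challenge, and no group received the extract without LPS. The labels call the libraries of a group biological replicates and give no batch.

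Malat1 and Neat1 are long, mostly unspliced RNAs that stay in the nucleus. Malat1 gathers in nuclear speckles, bodies rich in splicing factors, and Neat1 is the scaffold of paraspeckles, which form around it and hold RNA-binding proteins such as NONO and SFPQ. Gas5 and the Snhg genes are spliced lncRNAs whose introns carry small nucleolar RNAs (snoRNAs), the guides for chemical modification of ribosomal RNA. Their spliced products are known in other mammalian cells as short-lived transcripts: many begin with a run of pyrimidines, the 5' terminal oligopyrimidine (TOP) motif shared with ribosomal protein mRNAs, and are removed by nonsense-mediated decay (NMD) while they are being translated.

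Promoter windows were available from RefSeq (build GRCm38.p6, which is not the GRCm39 build used by the authors) for 6 of the 8 genes, 1 window for each gene and a second start for Gas5. Snhg6 and Neat1 had no entry. The windows are shown because the host genes and Malat1 differ in the letters around their starts. Each runs 5' to 3' on the strand of the gene, with 50 bases before the annotated start and 30 from it. Capitals mark TATA between 40 and 20 bases before the start and a run of at least 5 pyrimidines led by C within 10 bases of the start.
Gas5, second start, chr1:161035116-161035195, plus strand: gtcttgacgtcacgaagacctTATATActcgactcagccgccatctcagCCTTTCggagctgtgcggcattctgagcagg
Snhg12, chr4:132308628-132308707, plus strand: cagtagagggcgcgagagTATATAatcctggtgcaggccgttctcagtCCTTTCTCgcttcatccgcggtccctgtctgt
Snhg8, chr3:123508307-123508386, minus strand: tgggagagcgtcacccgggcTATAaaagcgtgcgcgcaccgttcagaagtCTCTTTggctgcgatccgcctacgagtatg
Snhg5, chr9:88522868-88522947, minus strand: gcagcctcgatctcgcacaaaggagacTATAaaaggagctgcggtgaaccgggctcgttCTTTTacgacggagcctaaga
Snhg1, chr19:8723437-8723516, plus strand: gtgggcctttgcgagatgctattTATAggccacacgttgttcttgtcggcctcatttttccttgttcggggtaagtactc
Malat1, chr19:5802643-5802722, minus strand: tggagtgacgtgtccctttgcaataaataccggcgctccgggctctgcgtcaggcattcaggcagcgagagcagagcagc

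All 5 host genes with a window held TATA at this distance, and the Malat1 window and the first Gas5 window did not. TATA reads the same on both strands, TATATA counts as overlapping matches, and the pyrimidine run was searched on the strand of the gene only. Of 32851 RefSeq windows, 5.81% held it at the same distance. Of these 5 genes, 4 also held the C-led pyrimidine run, CCTTTC in Gas5, CCTTTCTC in Snhg12, CTCTTT in Snhg8 and CTTTT in Snhg5, and 29% of all windows held such a run. Both features together stood in 1.77% of all windows. These matches describe letters only; no binding, start-site or translation data were measured.

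The values are TPM, a transcript level per length scaled to a fixed total per library, so levels of different genes can be set side by side. All 8 genes passed the filter on low values with room to spare: the lowest value of any member in any library was 11.4 TPM. Malat1 was the most abundant, with a mean of 503.6 TPM over the 24 libraries and rank 7 among 2726 lncRNA genes tested. Gas5 followed at 310.4 TPM (rank 12) and Neat1 at 299.3 TPM (rank 14). The other hosts were lower, at 64.9 TPM for Snhg8, 48.8 TPM for Snhg1, 31.4 TPM for Snhg12, 27.1 TPM for Snhg6 and 18.9 TPM for Snhg5. Gas5 and Snhg12 varied least, with the highest library 1.95 and 1.93 times the lowest, and Malat1 spanned the widest range, at 5.34 times.

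The libraries differed in ways that bear on every comparison. Scgb1a1, the main secretory protein of airway club cells, took 3.13 to 6.47% of all TPM in LPS lungs, against 23.2 to 35.5% in Control lungs. TPM add up to a fixed total in each library. Over all 17823 genes tested, the median log2 fold change was 0.55 for LPS against Control, and it was -0.20, -0.04 and -0.27 for the low, mid and high dose against LPS. Each result is therefore also given after dividing every library by its median-of-ratios factor, called scaled below, which brings that median to between -0.01 and 0.02. Lung epithelial markers were present in every library. Xist was at 25.8 to 95.5 TPM and the Y-linked genes Ddx3y, Uty and Kdm5d at 0.15 TPM or less in all 24 libraries, although the labels give male sex. The chemokine Cxcl2, a marker of the acute LPS response, was at 0.09 to 1.37 TPM in 7 of the 20 challenged libraries, near the 0.06 to 0.27 TPM of Control lungs, and at 45.1 to 454.1 TPM in the other 13; the 7 were LPS replicates 2 and 4, low-dose replicate 1, mid-dose replicates 1 and 4 and high-dose replicates 1 and 4. Skeletal muscle transcripts stood out in 3 libraries, where Acta1 was at 1990.25 TPM (LPS replicate 1), 1295.85 TPM (LPS replicate 3) and 470.2 TPM (low-dose replicate 5) and at most 5.54 TPM elsewhere. In whole lung, fewer cells of a type and less RNA per cell cannot be told apart.

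**Figure D1:**
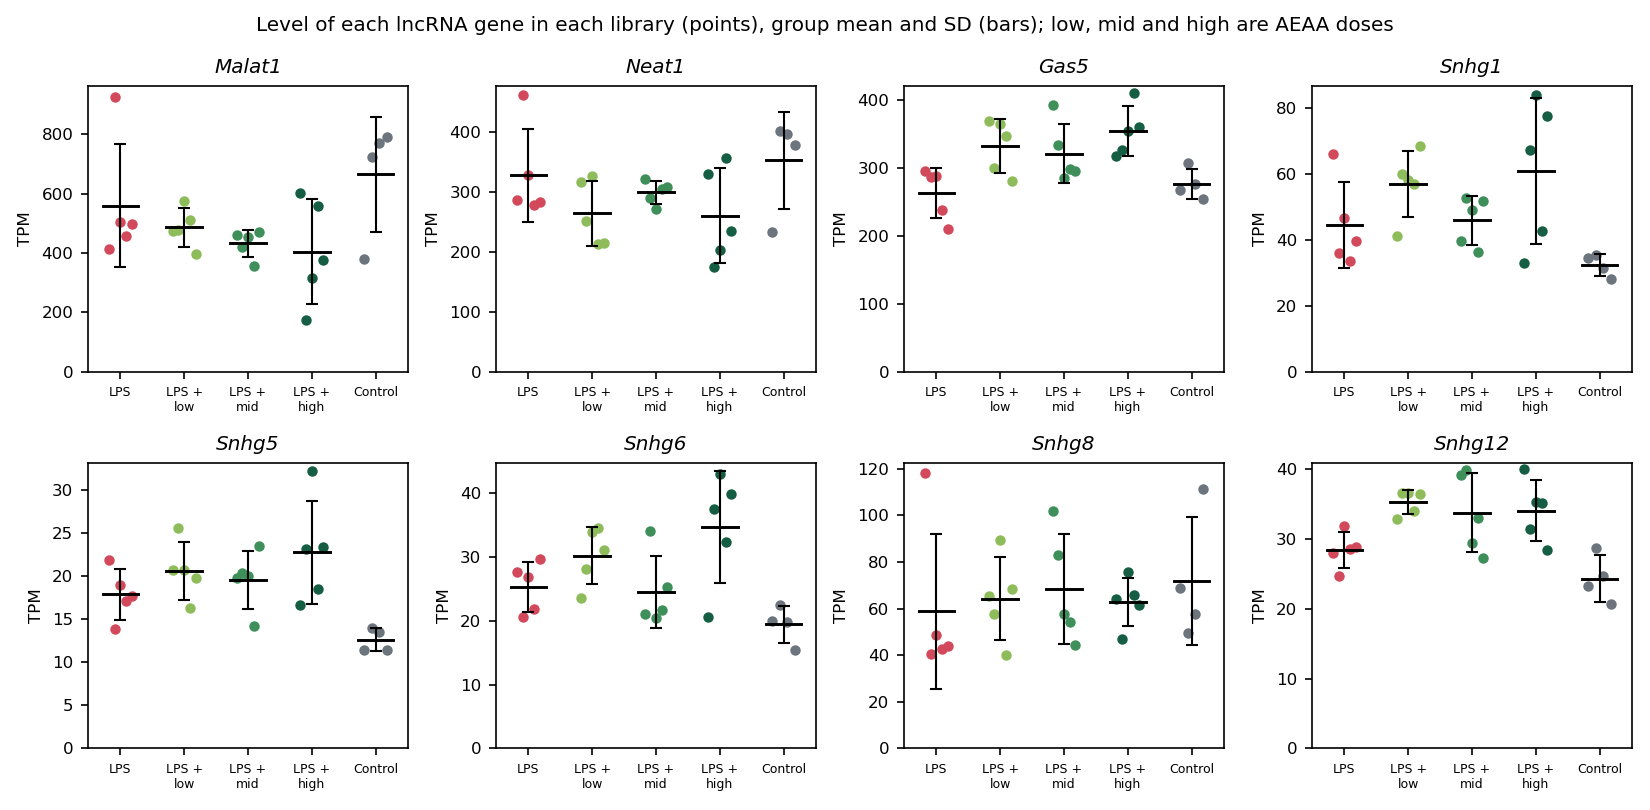
TPM of each of the 8 lncRNA genes (vertical axes, linear from 0) in each library (points), for LPS, the 3 extract doses after LPS and Control (horizontal axes), with the group mean and SD as black bars. The 5 high-dose points of Gas5 sit between 317.7 and 410.1 TPM, all above the LPS points at 210.5 to 294.6 TPM, while Malat1 shows 1 LPS library at 925.4 TPM, far above the rest of its group.

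Gas5 was the member that differed most steadily between extract and LPS alone, and it was higher with the extract. Gas5 is named for its accumulation in growth-arrested cells, hosts several box C/D snoRNAs, and its spliced RNA is known from human cells to bind the glucocorticoid receptor. Its level was 317.72, 325.49, 353.77, 410.14 and 360.52 TPM in high-dose lungs, against 294.6, 285.77, 287.45, 237.33 and 210.47 TPM in LPS lungs. Every high-dose library lay above every LPS library. Gas5 rose by a log2 fold change of 0.43 (SE 0.11, limma adjusted p = 0.0083), and by 0.75 after scaling (SE 0.13, adjusted p = 0.002). It was the only 1 of the 8 members called on TPM at this dose, where 27.6% of all genes tested were called, 2.05% as higher and 25.5% as lower. High-dose libraries lay above all LPS libraries for 0.516% of genes on TPM and 2.32% after scaling. Leaving out each of the 10 libraries in turn kept the adjusted p between 0.0047 and 0.027 on TPM, while a fit to these 2 groups alone gave 0.051.

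At the lower doses Gas5 had the same direction, and whether it passed depended on the scale. It was at 368.51, 299.62, 364.19, 346.06 and 280.26 TPM in low-dose lungs, so that 4 of 5 libraries lay above the highest LPS library. The log2 fold change against LPS was 0.34 (SE 0.11, limma adjusted p = 0.056) on TPM and 0.57 (SE 0.13, adjusted p = 0.028) after scaling, where the libraries did not overlap. In mid-dose lungs Gas5 was at 391.93, 332.85, 285.14, 298.58 and 295.71 TPM, again with 4 of 5 libraries above the highest LPS value. The log2 fold change of 0.29 at this dose had an unadjusted limma p of 0.018 and an adjusted p of 1. The low-dose call after scaling held in 4 of 10 fits that left out 1 library, and without the 3 libraries with muscle transcripts Gas5 passed at the low dose on both scales, at 0.50 (adjusted p = 0.033) on TPM and 0.79 (adjusted p = 0.019) after scaling.

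Over the dose groups together, Gas5 was the 1 member that passed on both scales. The test of any dose against LPS, which called 22.2% of genes on TPM and 7.07% after scaling, gave adjusted p = 0.032 and 0.0059 for Gas5. Snhg12 passed this test after scaling (adjusted p = 0.014, and 0.036 or less in all 20 fits that left out 1 library) and had 0.15 on TPM and 0.11 when rescaled without Scgb1a1. The linear trend over LPS and the 3 doses was 0.25 log2 units per mg/mL (SE 0.07, limma adjusted p = 0.038) on TPM and 0.41 (SE 0.08, adjusted p = 0.023) after scaling, where no other member passed. Of all genes tested, 8.4% were called in the trend on TPM, 0.774% as higher, and 1.53% after scaling, 1.27% as higher. The group means did not follow the doses step by step: 331.7 ± 39.7 TPM at the low dose, 320.8 ± 43.6 TPM at the mid dose and 353.5 ± 36.5 TPM at the high dose (SD, n = 5 each). Over 20 fits that left out 1 library, the trend held in 12 on TPM and 14 after scaling (adjusted p up to 0.09 and 0.066), and the any-dose call in 15 on TPM and all 20 after scaling. On TPM both missed the threshold without a filter on low values, at adjusted p = 0.095 for the trend and 0.078 for any dose, and with only the groups compared in the fit, at 0.055 and 0.054.

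Set against Control, Gas5 in LPS lungs depended wholly on the scale. On TPM it averaged 263.1 ± 37.2 in LPS lungs (SD, n = 5) and 276.0 ± 22.3 in Control lungs (SD, n = 4), a log2 fold change of -0.08 (SE 0.12, limma adjusted p = 0.6). After scaling it was at 181.6 to 272.2 in LPS lungs and 327.9 to 411.8 in Control lungs, with no overlap, a separation in this direction that 13.1% of genes showed, and it fell by 0.73 on the log2 scale (SE 0.14, adjusted p = 0.00074). Scaled values in high-dose lungs ran from 294.1 to 425.8, which overlaps the Control range. All fits that left out 1 library kept the scaled call, with adjusted p up to 0.005.

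Snhg12, a host of H/ACA and C/D snoRNAs, was the host gene closest to Gas5 in its pattern across groups. It was at 32.82, 36.65, 36.58, 33.97 and 36.44 TPM in low-dose lungs, against 27.94, 24.67, 31.91, 28.58 and 28.83 TPM in LPS lungs. No low-dose library reached down to the LPS range, a separation in this direction that 1.15% of all genes showed on TPM and 3.07% after scaling. The log2 fold change was 0.31 (SE 0.11, limma adjusted p = 0.071) on TPM and 0.53 (SE 0.12, adjusted p = 0.027) after scaling. For Snhg12 the scaled call held in 4 of 10 fits that left out 1 library. Gas5 and Snhg12 were the 2 members called at the low dose after scaling, where 2.11% of genes were called, 1.62% as higher, and none of the 8 was called on TPM, where 10.6% were.

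At the high dose Snhg12 was at 39.99, 31.4, 35.3, 35.15 and 28.48 TPM, and 2 of these 5 libraries lay within the LPS range. Its log2 fold change of 0.25 (SE 0.11) missed the threshold on TPM with a limma adjusted p of 0.094. After scaling the libraries no longer overlapped, and Snhg12 rose by 0.56 (SE 0.12, adjusted p = 0.0065), a call kept in all 10 fits that left out 1 library. In mid-dose lungs it was at 27.3 to 39.9 TPM around a mean of 33.8 ± 5.67 TPM, with a log2 fold change of 0.23 and an adjusted p of 1.

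**Figure D2:**
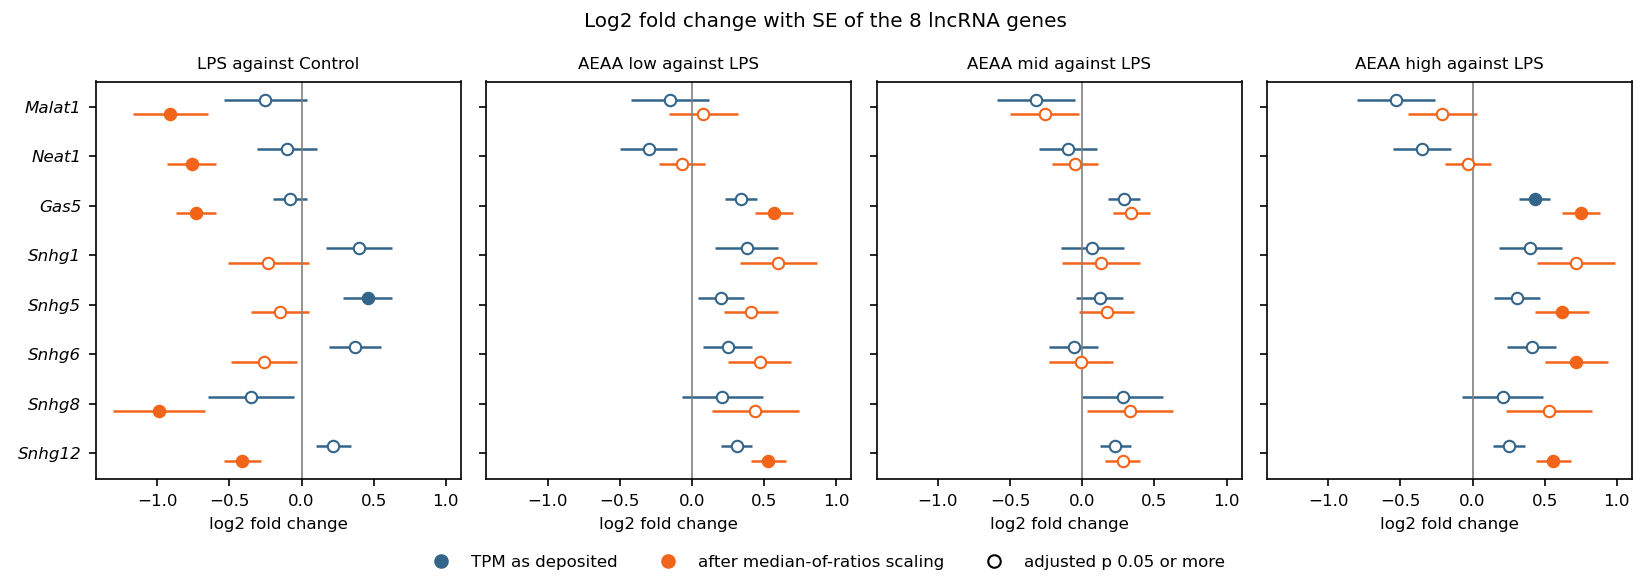
Log2 fold change (horizontal axes) with SE (lines) of each lncRNA gene (vertical axis) for LPS against Control and each dose against LPS, on TPM as deposited (blue) and after median-of-ratios scaling (orange); filled points have a limma adjusted p under 0.05. All 6 host genes lie right of 0 at the low and high dose on both scales, Gas5 at the high dose is filled on both, and Malat1 and Neat1 lie left of 0 at the high dose.

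Snhg1, Snhg5 and Snhg6 formed a second group of hosts, with the highest means at the high dose and wide spreads. Snhg1 hosts C/D snoRNAs including Snord22, Snhg5 hosts the Snord50 pair and Snhg6 hosts Snord87. In high-dose lungs Snhg6 was at 20.58, 37.47, 43.02, 32.42 and 39.83 TPM, against 27.71, 20.57, 26.82, 21.89 and 29.71 TPM in LPS lungs. The high-dose group thus had 4 libraries above all LPS libraries and 1 at their lower end. Snhg6 rose after scaling by 0.72 (SE 0.22, limma adjusted p = 0.041), and on TPM its log2 fold change was 0.41 (SE 0.17, adjusted p = 0.084). Without LPS replicate 1 or without high-dose replicate 1 the scaled call held, and without any other single library it did not. It was also lost without the 3 libraries with muscle transcripts (0.86, adjusted p = 0.062).

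Snhg5 was at 16.6 to 32.1 TPM in high-dose lungs (median 23.1 TPM) and 13.8 to 21.8 TPM in LPS lungs (median 17.6 TPM), so the groups overlapped. Its log2 fold change was 0.31 (SE 0.16, limma adjusted p = 0.14) on TPM and 0.62 (SE 0.19, adjusted p = 0.048) after scaling, and 3 of 10 fits that left out 1 library kept the scaled call. Snhg1 was at 32.91, 67.36, 83.95, 42.7 and 77.67 TPM in high-dose lungs, against 66.07, 36.06, 46.75, 33.68 and 39.56 TPM in LPS lungs. Here 3 high-dose libraries lay above the whole LPS group, 1 lay within it and 1 just below it. Snhg1 missed the threshold on both scales, at 0.40 (SE 0.22, adjusted p = 0.17) on TPM and 0.72 (SE 0.27, adjusted p = 0.099) after scaling. Without the 3 libraries with muscle transcripts, of which LPS replicate 1 had the highest LPS value of Snhg1, it passed on both, at 0.64 (adjusted p = 0.047) and 1.02 (adjusted p = 0.046). The LPS libraries left out in that fit, replicates 1 and 3, had high Cxcl2 (261.51 and 45.12 TPM). LPS replicates 2 and 4, with low Cxcl2 (1.37 and 0.09 TPM), stayed in. Muscle transcripts and Cxcl2 therefore cannot be told apart in this fit.

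After scaling, then, 4 members were called higher at the high dose, namely Gas5, Snhg12, Snhg6 and Snhg5, where 8.73% of all genes were called, 5.66% as higher and 3.07% as lower. Rescaling to a common total without Scgb1a1 kept the call for Gas5 (0.46, adjusted p = 0.0073), while Snhg12 (0.28, adjusted p = 0.068), Snhg6 (0.44, adjusted p = 0.066) and Snhg5 (0.34, adjusted p = 0.12) missed the threshold. At the low dose it gave 0.36 (adjusted p = 0.049) for Gas5 and 0.33 (adjusted p = 0.057) for Snhg12. The median log2 fold change of the 6 hosts was 0.36 on TPM and 0.67 after scaling, beside -0.27 and 0.00 over all genes tested. At the low dose it was 0.28 and 0.50, beside -0.20 and -0.01. At the mid dose 5 of 6 hosts had a positive value and their median was 0.18 on TPM and 0.22 after scaling. None of the 8 genes was called at the mid dose on either scale, nor was any gene of the whole table (0%). At an unadjusted limma p under 0.05, 625 of 17823 genes tested stood there on TPM and 532 after scaling, Gas5 and Snhg12 among them on both. Such a count can arise without any difference at this dose, so it adds nothing for these 2 genes. The 3 dose comparisons share the same LPS libraries.

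In LPS lungs Snhg5 was the 1 member called on TPM, where 58% of all genes were called, 56.2% as higher. It averaged 17.9 ± 2.92 TPM in LPS lungs (SD, n = 5) and 12.6 ± 1.35 TPM in Control lungs (SD, n = 4), a log2 fold change of 0.46 (SE 0.17, limma adjusted p = 0.021) that lay below the 0.55 of the median gene and was -0.15 (SE 0.20, adjusted p = 0.59) after scaling. The call on TPM was lost without LPS replicate 1, Control replicate 1 or Control replicate 4 (adjusted p up to 0.061), and without the 3 libraries with muscle transcripts (0.33, adjusted p = 0.15). Snhg1 at 0.40, Snhg6 at 0.37 and Snhg12 at 0.22 also had positive log2 fold changes on TPM that were negative after scaling, at -0.23, -0.26 and -0.41. Snhg12 passed with the negative value (SE 0.13, adjusted p = 0.019), and missed the threshold without Control replicate 1 or 2 (adjusted p up to 0.068). The direction of these 4 hosts under LPS therefore cannot be stated without naming the scale.

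Snhg8, which hosts the H/ACA snoRNA Snora24, had the largest spread relative to its mean, with an SD of 33.8% of the mean over the 24 libraries, beside 32.9% for Malat1. It was at 118.08, 40.38, 48.72, 42.68 and 44.06 TPM in LPS lungs, against 68.95, 49.67, 57.55 and 111.22 TPM in Control lungs. Apart from LPS replicate 1, every LPS library lay below every Control library. The log2 fold change was -0.35 (SE 0.30, limma adjusted p = 0.33) on TPM and -0.99 (SE 0.32, adjusted p = 0.026) after scaling, and 3 of 9 fits that left out 1 library kept the scaled call. Without the 3 libraries with muscle transcripts, LPS replicate 1 among them, the scaled value was -1.39 (adjusted p = 0.0057). Dose groups averaged 62.8 to 68.3 TPM, and Snhg8 passed against LPS at no dose on either scale (limma adjusted p of 0.61 or more on TPM). After scaling its log2 fold change at the high dose was 0.53 (SE 0.30, adjusted p = 0.31). That value passed in 1 of 10 fits that left out 1 library, the fit without LPS replicate 1 (adjusted p = 0.046).

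Malat1 and Neat1 did not pass against Control on TPM and were lower than in Control after median-of-ratios scaling. Malat1 was at 415.36, 925.37, 504.85, 458.27 and 496.59 TPM in LPS lungs, against 378.59, 722.72, 771.03 and 792.29 TPM in Control lungs. LPS replicate 2 stood above all Control libraries and Control replicate 1 below all LPS libraries, each far from the rest of its own group. The log2 fold change was -0.25 (SE 0.29, limma adjusted p = 0.47) on TPM and -0.91 (SE 0.26, adjusted p = 0.012) after scaling. Neat1 was at 286.54, 463.32, 328.4, 278.59 and 283.89 TPM in LPS lungs, against 232.94, 403.16, 397.86 and 379.35 TPM in Control lungs. The same LPS library was highest and the same Control library lowest. Its log2 fold change was -0.10 (SE 0.21, adjusted p = 0.7) on TPM and -0.76 (SE 0.17, adjusted p = 0.0033) after scaling. Both nuclear RNAs kept the scaled call in all 9 fits that left out 1 library. Without the 3 libraries with muscle transcripts the scaled value was -0.82 (adjusted p = 0.075) for Malat1 and -0.77 (adjusted p = 0.017) for Neat1. With Malat1, Neat1, Gas5, Snhg8 and Snhg12, 5 of the 8 members were called lower in LPS lungs after median-of-ratios scaling, where 27.9% of all genes were called, 13.7% as lower. When TPM were instead rescaled to a common total without Scgb1a1, 1 of the 8 was called lower, namely Gas5 (-0.49, adjusted p = 0.0037). Malat1 (-0.66, adjusted p = 0.076), Neat1 (-0.51, adjusted p = 0.057), Snhg8 (-0.75, adjusted p = 0.06) and Snhg12 (-0.18, adjusted p = 0.25) then missed the threshold.

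With the extract, neither nuclear RNA passed at any dose on either scale. Malat1 was at 173.28 to 600.94 TPM in high-dose lungs (median 378.2 TPM), and its log2 fold change against LPS was -0.53 (SE 0.27, limma adjusted p = 0.15) on TPM and -0.21 (SE 0.24, adjusted p = 0.66) after scaling. It passed in 1 fit that left out a library, with an adjusted p of 0.049 on TPM. Neat1 was at 175.7 to 358.0 TPM in high-dose lungs, with -0.35 (SE 0.20, adjusted p = 0.18) on TPM and -0.03 (SE 0.16, adjusted p = 0.94) after scaling.

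The ratio of Neat1 to Malat1 within a library does not depend on the scale. It was 0.551, 1.01, 0.644, 0.642 and 0.623 in high-dose lungs, 0.597 to 0.862 in mid-dose lungs, 0.417 to 0.668 in low-dose lungs, 0.501 to 0.69 in LPS lungs and 0.479 to 0.615 in Control lungs. All groups overlapped. The mean log2 ratio differed by 0.15 between LPS and Control (exact permutation p = 0.222), and by -0.15, 0.21 and 0.18 between the low, mid and high dose and LPS (exact permutation p = 0.302, 0.119 and 0.389). All 4 two-sided tests had an adjusted p of 0.389, and the smallest p they allow is 0.0159 for the first and 0.00794 for the others.

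**Figure D3:**
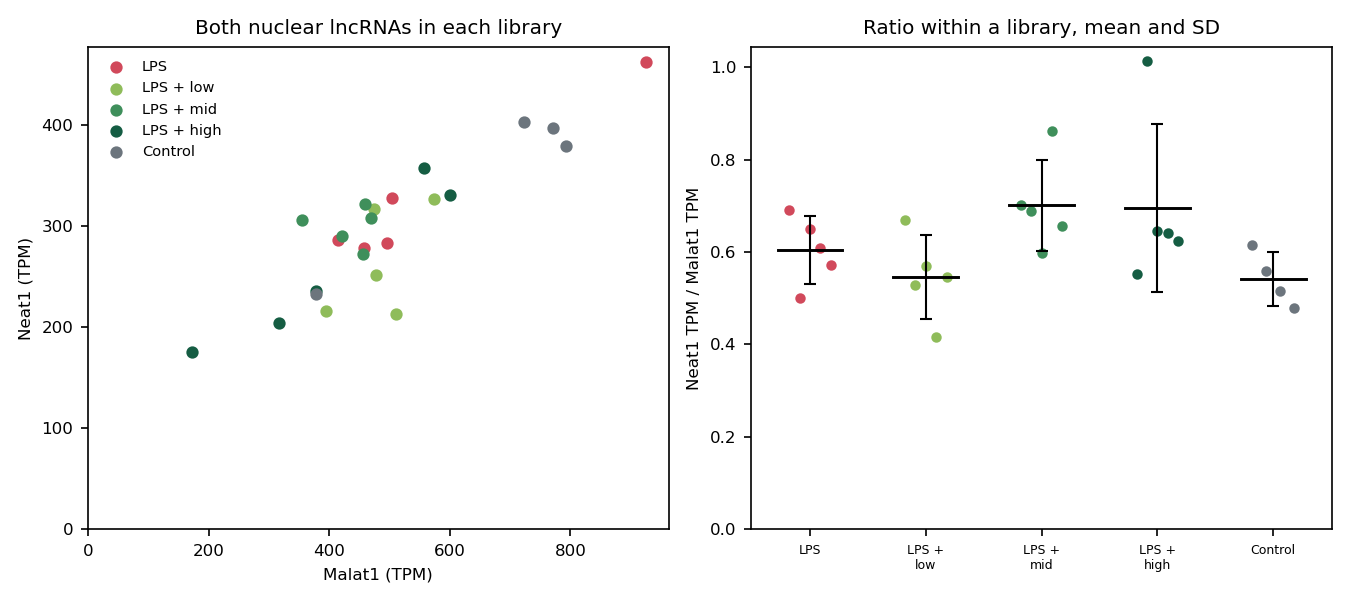
Left, Neat1 against Malat1 (TPM, linear axes from 0) in each of the 24 libraries, coloured by group; right, the ratio of both in each library by group, with mean and SD as black bars. LPS replicate 2 stands at the upper right with 925.4 TPM of Malat1 and 463.3 TPM of Neat1, and 1 high-dose library has a ratio of 1.01 where the next is 0.644.

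The members split into blocks by how they moved across libraries. Over the 24 libraries, with scaled log2 values centred on their group means, Malat1 and Neat1 had a Pearson r of 0.83. Snhg1 had 0.86 with Snhg6 and 0.83 with Snhg5, and Snhg5 had 0.70 with Snhg6. Gas5 had 0.42 to 0.49 with each of the other 5 hosts and 0.03 with Malat1. Malat1 had -0.41, -0.32 and -0.37 with Snhg1, Snhg5 and Snhg6. These values describe the libraries, whose members share the library and its scale factor: on TPM the r of Gas5 with Snhg1, Snhg5 and Snhg6 was 0.03, 0.05 and 0.11, while that of Malat1 with Neat1 was 0.87 and that of Snhg1 with Snhg6 was 0.77.

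**Figure D4:**
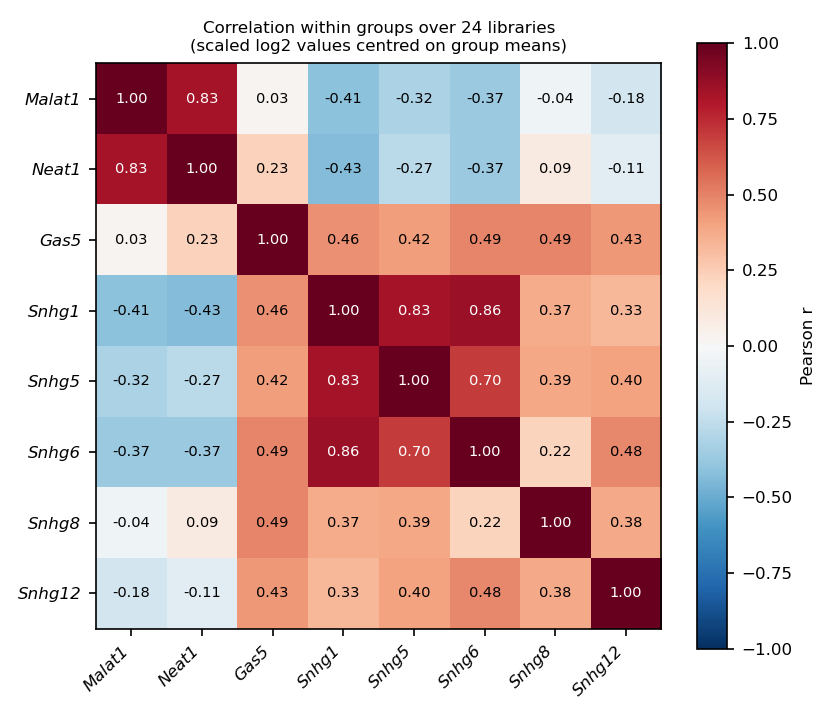
Pearson r between each pair of the 8 lncRNA genes (rows and columns) over 24 libraries, on scaled log2 values centred on group means; red is positive and blue negative. Snhg1 with Snhg6 (0.86), Snhg1 with Snhg5 (0.83) and Malat1 with Neat1 (0.83) are the darkest red cells off the diagonal, and the cells of Malat1 and Neat1 with Snhg1, Snhg5 and Snhg6 are blue.

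The genes most like each member over the 24 libraries, by Pearson r of scaled log2 values without centring, differed between the blocks. The search covered 11041 genes with an established symbol and a mean of 5 TPM or more. Genes with Gm, Rik or clone names, pseudogenes named -ps and genes with only an ID were not compared. Malat1 was most like Neat1 (0.89), the RNA helicase gene Ddx5 (0.84) and Son (0.83), which encodes a core protein of nuclear speckles. Neat1 was most like Hnrnph3 (0.90), an RNA-binding protein of paraspeckles, Malat1 (0.89) and the club cell cytochrome Cyp2f2 (0.88). Gas5 was most like Hypk (0.94), Ndufaf8 (0.94) and the ribosomal protein gene Rpl37a (0.92). Snhg12 stood near the ribosomal protein gene Rps29 (0.85) and near Fmc1 (0.84), and Snhg6 near the proteasome gene Psmb1 (0.95) and the ribosomal protein genes Rpl27 (0.94) and Mrpl20 (0.94, of the mitochondrial ribosome). Snhg1 was most like Sec61g (0.95), H2az1 (0.94) and Tmem126a (0.94), Snhg5 like Zfp91 (0.88), Snhg1 (0.88) and Rwdd1 (0.87), and Snhg8 like Dbndd2 (0.79), Mrps21 (0.75) and Mageh1 (0.73).

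Libraries with high and low Cxcl2 within a group also differed in Snhg1. In each of the 4 challenged groups, every library with Cxcl2 at 45.1 TPM or more had more Snhg1 than every library with Cxcl2 at 1.37 TPM or less. Over all genes tested, 4.65% showed this order in all 4 groups and 9.9% in 3 or 4 of them, with 1 or 2 low-Cxcl2 libraries in a group. In the high-dose group, Snhg1 was at 67.4 to 84 TPM in the 3 libraries with high Cxcl2 and at 32.9 and 42.7 TPM in the others. In the LPS group it was at 39.6 to 66.1 TPM in 3 libraries with high Cxcl2 and at 33.7 and 36.1 TPM in the others. Snhg5 showed the same order in 3 of 4 groups, with overlap at the low dose, Snhg6 in 3 of 4, with overlap at the mid dose, and Snhg8 and Snhg12 in 1. Gas5 showed it in none: its highest high-dose library, at 410.1 TPM, and its highest low-dose and mid-dose libraries, at 368.5 and 391.9 TPM, were all libraries with low Cxcl2. Malat1 and Neat1 had the opposite order in the high-dose group, at 173.3 to 378.2 TPM and 175.7 to 235.7 TPM with high Cxcl2, against 557.5 to 600.9 TPM and 331.4 to 358.0 TPM with low Cxcl2. Both overlapped in the other 3 groups, and Gas5 had the opposite order at the low dose. The share of all genes with either order in 1 group was not counted. With 3 libraries against 2 or fewer, such an order in 1 group carries little weight. Neutrophil marker sums also varied widely inside groups, with a median of 6057 TPM in high-dose lungs, 2010 TPM in LPS lungs and 134.4 TPM in Control lungs. Endothelial marker sums had a median of 1114 TPM in low-dose and 1107 TPM in high-dose lungs, against 1707 TPM in LPS lungs. Of 6 endothelial markers, 3 were called lower at the low dose and 4 at the high dose on TPM, where 9.38% and 25.5% of all genes were, and none and 1 after scaling. Their median log2 fold change was -0.48 and -0.77 on TPM and -0.25 and -0.45 after scaling. Against Control, 6 of 6 neutrophil and 4 of 6 endothelial markers were higher in LPS lungs on TPM, where 56.2% of all genes were. After scaling 5 and 2 were, beside 14.2% of all genes. Of 6 markers each, 5 of macrophages, 3 of lymphocytes and 2 of red cells were higher on TPM, and 1 of each after scaling. Of 6 heart muscle markers, 2 were lower on TPM and 5 after scaling, where 1.86% and 13.7% of all genes were. The part of these responses and cell types in the levels of the members was not tested, since libraries picked by a response cannot be compared as groups.

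**Figure D5:**
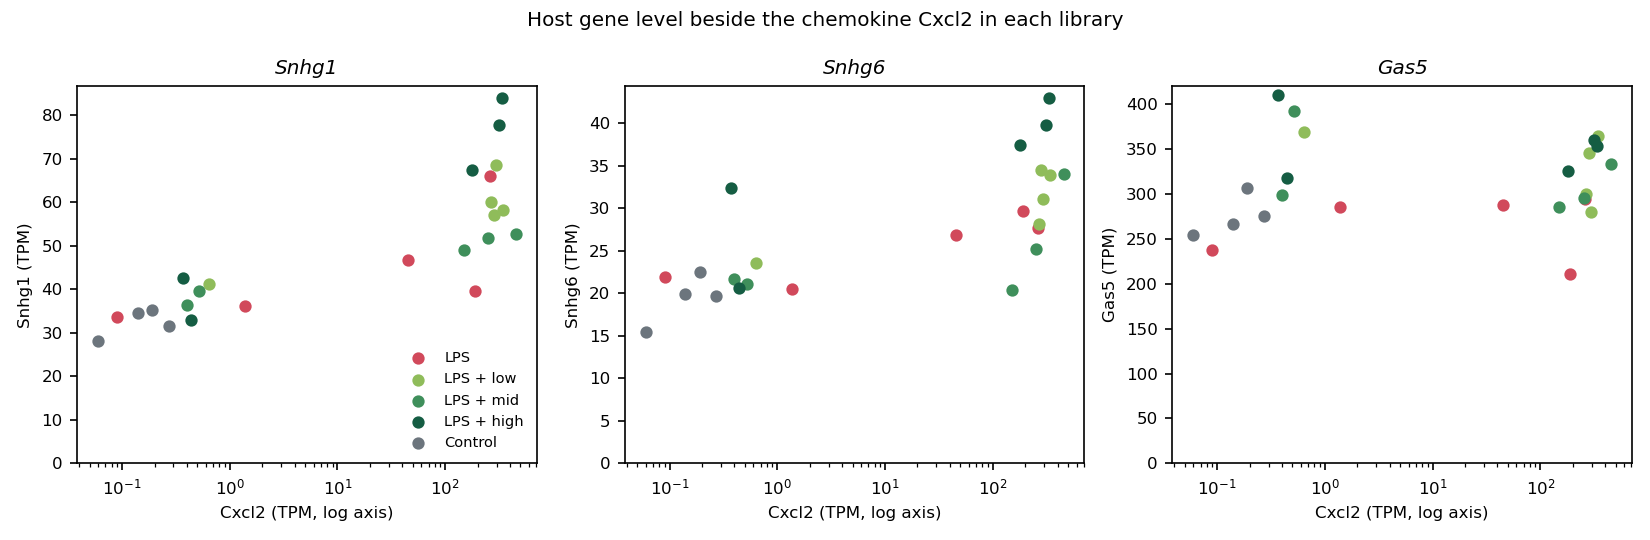
TPM of Snhg1, Snhg6 and Gas5 (vertical axes, linear from 0) against Cxcl2 TPM (horizontal log axis) in each of the 24 libraries, coloured by group. The 13 challenged libraries with Cxcl2 at 45.1 TPM or more reach 84 TPM of Snhg1, the 7 with low Cxcl2 stay at 32.9 to 42.7 TPM, and the highest Gas5 value, 410.1 TPM, is in a library with low Cxcl2.

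The snoRNAs in the introns of the hosts were not measured in these libraries in a usable way. Of 27 snoRNA genes within the spans of the 6 hosts, by their IDs in GENCODE M21, 23 had a row in the table, and all 23 were listed at 0 in all 24 libraries. This held for the table at large, where 1496 of 1507 snoRNA rows were listed at 0 throughout. Whether reads from these snoRNAs were counted to the hosts was not tested. A further 3 genes overlap a member on the opposite strand, and whether reads were counted by strand is not given in the sources used here: Zbtb37 beside Gas5 averaged 1.68 TPM, Mcmdc2 beside Snhg6 0.273 TPM and Gm37376 beside Malat1 0.0333 TPM, all far below their partners.

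The share of genes called differed with transcript length, at the low and high dose and under LPS. Among 16407 genes with a known length (92.1% of those tested), cut into 10 bins, 13.5% of genes in the shortest bin and 1.16% in the longest were called higher at the high dose after scaling. At the low dose these shares were 7.56% and 0.0609%. Under LPS they ran the other way, at 7.37% and 21.2%, while 330 of 1641 genes in the shortest bin and 134 of 1641 in the longest were called lower. The 6 hosts have short annotated isoforms, with medians of 528 to 915.5 nt. Each host was also set beside genes of its own bin of annotated length, at the high dose after scaling. Gas5 was 0.70 log2 units above the median of its bin, with 96.2% of that bin below it. The others were Snhg5 at 0.57 (96.8%), Snhg1 at 0.66 (95.5%), Snhg12 at 0.51 (94.9%), Snhg6 at 0.62 (85.3%) and Snhg8 at 0.42 (77.2%). For LPS against Control after scaling, the hosts called lower stood below the medians of their bins. Gas5 was at -0.73 from its bin median (9.69% of the bin below it), Snhg8 at -0.93 (10.8%) and Snhg12 at -0.39 (20%). The part of transcript length, or of RNA quality that may go with it, in these values was not tested.

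Other lncRNA genes that host snoRNAs were read from a list of 15 names, of which 16 rows were tested because Snhg4 has 2 rows. At the high dose 1 rose on TPM and 3 after scaling, where 2.05% and 5.66% of all genes tested rose. None of these rows fell, where 25.5% and 3.07% of all genes did. Snhg3 rose at the high dose, with 66.7 ± 13.8 TPM in high-dose lungs and 41.5 ± 5.66 TPM in LPS lungs (SD, n = 5 each), a log2 fold change of 0.66 (SE 0.15, limma adjusted p = 0.004). At the low dose, with 64 ± 12.1 TPM, it rose by 0.60 (SE 0.15, adjusted p = 0.021), a call lost without the 3 libraries with muscle transcripts (adjusted p = 0.074). The median of the list at the high dose was 0.08 on TPM and 0.29 after scaling. Under LPS 3 of these rows were higher and 2 lower than in Control on TPM, and 0 and 8 after scaling. Of all genes tested, 56.2% were higher and 1.86% lower on TPM, and 14.2% and 13.7% after scaling. Snhg20 was the clearer of those lower on both, at 17.5 ± 5.08 TPM in LPS lungs (SD, n = 5) and 29 ± 3.93 TPM in Control lungs (SD, n = 4), a log2 fold change of -0.74 (SE 0.25, adjusted p = 0.014). Snhg14 had -0.89 (SE 0.31, adjusted p = 0.017) at low levels, 1.73 ± 1 TPM in LPS lungs and 3.9 ± 1.01 TPM in Control lungs. Over all 2726 lncRNA genes tested, 477 were higher and 126 lower under LPS on TPM, and 80 and 475 after scaling.

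Lists of genes that work with these RNAs were counted the same way, and each count stands beside the shares over all genes tested. Under LPS these shares were 56.2% higher and 1.86% lower on TPM, and 14.2% higher and 13.7% lower after scaling. At the high dose they were 2.05% higher and 25.5% lower on TPM, and 5.66% higher and 3.07% lower after scaling. Of 16 paraspeckle protein genes, 12 were higher in LPS lungs than in Control on TPM and none lower, while after scaling 4 were higher and 4 lower. The median of this list was 0.67 on TPM and 0.02 after scaling, beside 0.55 and 0.02 for all genes. Rbm14, a paraspeckle protein needed for these bodies to assemble, rose under LPS to 23.1 ± 3.98 TPM in LPS lungs, against 9.11 ± 1.56 TPM in Control lungs (log2 fold change 1.25, SE 0.16, limma adjusted p = 1.1e-06), and fell by 0.86 on the log2 scale at the high dose (12.2 ± 1.42 TPM, SE 0.15, adjusted p = 0.0014); both held after scaling. At the high dose 9 of the 16 fell and none rose on TPM, and after scaling 1 fell and 3 rose. Of 14 nuclear speckle protein genes, 11 were higher and none lower under LPS on TPM, and 1 was higher and 2 lower after scaling (median 0.44 and -0.21). At the high dose 5 of these 14 fell and none rose on TPM, and 1 fell and none rose after scaling (median -0.27 and 0.05). The 1 that fell on both scales was Srrm2, a scaffold protein of speckles. It was at 78.3 ± 33.3 TPM in high-dose lungs, against 144.5 ± 32 TPM in LPS lungs (log2 fold change -0.94, SE 0.22, adjusted p = 0.0045). After scaling it fell by 0.62 (adjusted p = 0.028).

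Of 16 NMD factors, 14 were higher under LPS on TPM, and 4 were higher and 2 lower after scaling (median 0.77 and 0.18). Smg5, which helps to dephosphorylate the NMD helicase UPF1, was at 38.3 ± 2.23 TPM in LPS lungs and 14.4 ± 2.86 TPM in Control lungs (log2 fold change 1.36, SE 0.14, limma adjusted p = 1e-07; 0.74 after scaling). Magoh, a core part of the exon junction complex, rose at the high dose on both scales, to 103.5 ± 18.4 TPM, against 82.2 ± 5.79 TPM in LPS lungs (log2 fold change 0.31, SE 0.10, adjusted p = 0.03). On TPM 8 NMD factors fell and 1 rose at the high dose, and after scaling 2 rose and none fell. Of 16 genes for snoRNA-protein particles, 13 were higher under LPS on TPM, and 2 were higher and 3 lower after scaling (median 0.70 and 0.13). Nop58, a core protein of C/D particles, was at 61.6 ± 4.54 TPM in LPS lungs and 21.7 ± 4.74 TPM in Control lungs (log2 fold change 1.49, SE 0.26, adjusted p = 5.5e-05). At the high dose Znhit3, an assembly factor of these particles, was the 1 gene of this list to rise on TPM (0.24, SE 0.08, adjusted p = 0.039).

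Coding mRNAs with a TOP motif, the class to which several host RNAs belong, were counted over 16 genes. At the high dose 1 rose and 1 fell on TPM, and 7 rose and none fell after scaling. Eef1b2, a translation elongation factor subunit, was at 392.4 ± 65.2 TPM in high-dose lungs and 282.3 ± 54.6 TPM in LPS lungs (log2 fold change 0.48, SE 0.14, limma adjusted p = 0.013). The list had a median of 0.00 on TPM and 0.33 after scaling at the high dose, below the 0.36 and 0.67 of the 6 hosts; this difference was not tested. Of 8 glucocorticoid receptor targets, read because of the known binding of Gas5 RNA to that receptor, 1 fell at the high dose and none rose on either scale. Of all genes, 25.5% fell there on TPM and 3.07% after scaling. At the low dose 2 of the 8 fell on TPM, where 9.38% of all genes did, and none after scaling. Under LPS 4 were higher on TPM, and 1 was higher and 1 lower after scaling. A link between these genes and Gas5 was not tested. Dusp1, a phosphatase that limits inflammatory kinase signalling, was at 107.9 ± 23.2 TPM in high-dose lungs and 248.6 ± 53.5 TPM in LPS lungs (log2 fold change -1.19, SE 0.19, adjusted p = 0.0011). Of 5 small structural RNA rows tested, Rn7s1 and Rn7s2, copies of the signal recognition particle RNA with identical values in the table, rose at the high dose to 50 ± 5.28 TPM, against 31.5 ± 9.52 TPM in LPS lungs (log2 fold change 0.70, SE 0.20, adjusted p = 0.015). Of 17 other lncRNA genes tested, none rose and 1 fell at the high dose on TPM, and none was called after scaling.

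Several of these calls on single genes were lost when the 3 libraries with muscle transcripts were left out together. On TPM these were Snhg20 (adjusted p = 0.053) and Snhg14 (0.095) under LPS, and Magoh (0.073), Rn7s1 and Rn7s2 (0.073 each) and Eef1b2 (0.052) at the high dose. After scaling they were Nop58 under LPS (limma adjusted p = 0.14) and Srrm2 (0.068) and Dusp1 (0.074) at the high dose. Snhg3 kept its call at the high dose. Without a filter on low values, Znhit3 (limma adjusted p = 0.096) and Magoh (0.075) at the high dose and Snhg3 at the low dose (0.058) missed the threshold on TPM. With only the groups compared in the fit, Znhit3 (0.15), Magoh (0.14), Eef1b2 (0.08) and Rn7s1 and Rn7s2 (0.057 each) missed it at the high dose.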

How the data were processed

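Total RNA from 24 lungs was sequenced after removal of ribosomal RNA, per the labels' protocols. The authors deposited 1 table of TPM, rounded to 2 decimals. RSEM, StringTie, HISAT2 and DESeq2 stand in the submitters' processing notes, with the build GRCm39; versions and annotation release are not given in the sources used here. No read counts were used here, so depth is unknown and no counting interval or count test is given.

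Values were analysed as log2(TPM + 1), which understates changes of low genes. A gene was tested where 4 or more libraries reached 1 TPM (17823 of 78298). A model with 1 mean per group over all 24 libraries was fitted with limma 3.58.1 (R 4.3.3; trend and robust prior, two-sided), and Benjamini-Hochberg adjustment covered every gene tested, with a threshold of 0.05. Each fit was repeated on TPM divided by median-of-ratios factors, which were 1.08 to 1.28 in LPS, 0.943 to 1.07, 1.05 to 1.27 and 0.877 to 1.08 in the low, mid and high dose, and 0.648 to 0.809 in Control libraries. The fit was checked on simulated data. Ratios were compared with exact permutation tests over libraries. No pair of libraries held identical values.

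The members and gene lists were chosen with earlier results of these data known. Named list genes are at most the 3 largest changes that passed on both scales, or else the most abundant member, and the 3 genes most like each member are named, of which 1 is not reported here. Alternatives were other scalings, filters, a pseudocount of 0.1, the replicate number as a block, fits that hold only the groups compared, and leaving out each library. Leaving out together the 3 libraries with skeletal muscle transcripts was chosen after seeing the data. All 3 had Cxcl2 at 45.1 TPM or more, so this fit also shifts the share of libraries with low Cxcl2. Libraries with low Cxcl2 were not left out, since that would choose them by an outcome. Promoter windows are from RefSeq, matched by symbol.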

Additional observations from a re-analysis of the deposited data

Results flagged for a closer look

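In 6 of 45 groups of values for the members and their ratio, 1 library lay further from the others than Dixon's criterion allows, where chance flags about 1 in 20 groups. These groups share the same libraries, and Malat1 and Neat1 moved together (r of 0.87 on TPM within groups). The flags are therefore not independent, and their number is not a test against chance. Malat1 was at 925.4 TPM in LPS replicate 2, against 504.9 TPM in the next library, and Neat1 was at 463.3 TPM in the same library, against 328.4 TPM. In Control replicate 1, Malat1 was at 378.6 TPM with the next library at 722.7 TPM, and Neat1 at 232.9 TPM with the next at 379.4 TPM. Snhg8 was at 118.1 TPM in LPS replicate 1, which also had the highest skeletal muscle marker sum (4083 TPM), with the next library at 48.7 TPM. The ratio of Neat1 to Malat1 was 1.01 in high-dose replicate 2, with the next at 0.644.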

How the results depend on the processing

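The count of genes called moved with the scale in every comparison that called genes on TPM. For LPS against Control it was 10344 on TPM, 4973 with median-of-ratios scaling, 4849 with upper-quartile scaling and 6550 after leaving Scgb1a1 out of the total. For the low dose it was 1892, then 376 and 319 with the 2 scalings and 347 without a filter. For the high dose it was 4919, then 1556, 1690 and 3247, and 1961 with only the compared groups in the fit. For any dose it was 3961, then 1260, 1304 and 2413. For the trend it was 1498, then 272, 582 and 95, and 938 with the challenged groups alone. For the mid dose it was 0, with 1 from the compared groups alone. Leaving out together the 3 libraries with muscle transcripts gave, after scaling, 2676 for LPS, 148 for the low, 4 for the mid and 918 for the high dose, 731 for any dose and 197 for the trend, and 6 for the mid dose on TPM. Over fits that left out 1 library, on either scale, counts ran from 3310 to 10264 for LPS, 62 to 2417 for the low, 0 to 2 for the mid and 755 to 6358 for the high dose, 623 to 5246 for any dose and 9 to 3833 for the trend. The cause of these moves was not tested.

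Directions of members that turned were these. For LPS against Control, Snhg1 was -0.23 and -0.29 with median-of-ratios and upper-quartile scaling and -0.54 when the muscle libraries were also left out; Snhg5 was -0.15, -0.20 and -0.34, Snhg6 -0.26, -0.32 and -0.40, and Snhg12 -0.41, -0.47 and -0.53. Leaving Scgb1a1 out of the total gave -0.03 for Snhg6 and -0.18 for Snhg12. Malat1 at the low dose was 0.08, 0.10 and 0.06, and Neat1 0.01 when scaled without the muscle libraries. Snhg6 at the mid dose was 0.01 with upper-quartile scaling and 0.02 and 0.13 without the muscle libraries. Neat1 was 0.04 at the high dose and 0.03 in the trend with upper-quartile scaling. Of these reversed values, those of Snhg12 under LPS with a scaling passed the test and no other did. Over fits that left out 1 library, on either scale, LPS against Control ran from -0.41 to 0.49 for Snhg1, -0.25 to 0.55 for Snhg5, -0.38 to 0.44 for Snhg6 and -0.50 to 0.30 for Snhg12. The low dose ran from -0.24 to 0.25 for Malat1 and -0.38 to 0.03 for Neat1. The mid dose ran from -0.16 to 0.05 for Neat1, -0.01 to 0.31 for Snhg1 and -0.18 to 0.07 for Snhg6. The high dose ran from -0.71 to 0.04 for Malat1 and -0.48 to 0.07 for Neat1, and the trend from -0.25 to 0.05 for Neat1.

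Replicate numbers did not pair the libraries throughout: the correlations of same-numbered deviations ran from -0.457 to 0.469. Mid-dose replicates 3, 4 and 5 were most like the LPS library of their number (0.142, 0.469 and 0.386). So were high-dose replicates 3, 4 and 5 (0.298, 0.428 and 0.218), but not replicates 1 and 2 of these doses or any low-dose replicate. Against Control, only LPS replicate 1 was (0.0651). Low Cxcl2 also recurred under numbers 1 and 4, and whether the number marks a shared factor was not tested. With the number as a block the trend count was 973, and with the block and scaling the counts were 4581 for LPS, 149 for the low, 1 for the mid and 1475 for the high dose, 1001 for any dose and 98 for the trend. The block with scaling gave -0.29, -0.18, -0.31 and -0.40 for Snhg1, Snhg5, Snhg6 and Snhg12 under LPS and 0.08 for Malat1 at the low dose, and Gas5 at the low dose missed the threshold in that fit (0.57, adjusted p = 0.051). The mean paired difference of the Neat1 to Malat1 log2 ratio was 0.17 for LPS against Control. For the doses, with equal group sizes, it equals the difference of group means by arithmetic and so gives no separate check.

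Every library is described by TPM alone, so how far depth limits low values is unknown.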
